A study of Mus musculus with 36 samples.

Results

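Smgc and Muc19 are a pair of secreted-product genes that share 1 locus and a first exon on mouse chromosome 15, and their transcripts were followed here in submandibular salivary glands of control and tumor-bearing double-mutant mice. They are 2 of the 31102 genes in the single-cell tables, and both were measured in 32 of the 36 samples of the series. Cells were assigned to classes by a fixed rule: a Smgc-high cell had 5% or more of its transcripts (unique molecular identifiers, UMIs) from Smgc, and a Muc19-high cell had 2% or more from Muc19. Of 23346 Drop-seq cells, 789 were Smgc-high, 374 were Muc19-high, 5 were both and 22178 were neither. Of 2535 CITE-seq cells, 69 were Smgc-high, none was Muc19-high or both, and 2466 were neither.

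Drop-seq, which captures single cells in droplets with barcoded beads, was made from 12 control glands (6 each at postnatal days 40 and 90, P40 and P90) and 14 double-mutant glands (7 at each stage). All mice had K14-Cre together with R26-EYFP, a reporter that Cre switches on, and double-mutant mice had in addition the β-catenin gain-of-function (GOF) and Bmpr1a loss-of-function (LOF) alleles, all on C57BL/6. K14 drives Cre in the basal epithelium, so the alleles were recombined in those cells and their progeny, while the other cells of a gland were not targeted. Each library held the live, sorted and methanol-fixed cells of 1 gland of 1 female or male mouse, with 3 females and 3 males in each control group and 4 females and 3 males in each double-mutant group as labelled. CITE-seq RNA came from 4 further glands at P70 (2 per genotype), and bulk mRNA-seq from 1 female control gland at P70 and 1 female double-mutant gland at P100.

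Salivary glands package mucins and smaller glycoproteins in different secretory cells. Muc19 is a large gel-forming mucin known from mucous cells, above all those of the sublingual gland, which lies in the same capsule as the submandibular gland. Smgc encodes submandibular gland protein C, a product of the immature terminal tubule cells of the newborn gland that persists in intercalated ducts of adult females. A gel-forming mucin has to be loaded with O-linked sugars by GALNT enzymes and chain-extending transferases, under transcription factors such as Spdef and Creb3l1. The Dcpp genes (demilune cell and parotid proteins) are made by serous demilune cells, which cap mucous end-pieces in the sublingual gland.

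In the annotation of build mm10 (GRCm38), Smgc (ENSMUSG00000047295) spans chr15:91838265-91861438 and Muc19 (ENSMUSG00000044021) spans chr15:91838326-91934555, both on the plus strand. Their exons overlap over 95 bases, chr15:91838326-91838420, which are the whole first exon of a Muc19 transcript and the end of the first exon of Smgc. From that shared splice donor the Smgc transcript shown here continues after an intron of 2911 bases and the Muc19 transcript after one of 32051 bases. The donor is used by 7 of the 10 annotated Smgc transcripts and by 1 of the 4 Muc19 transcripts, all 4 of which are annotated as processed transcripts without a coding sequence. The coding part of this Smgc transcript starts inside the shared stretch, at base 91838369. The splice junctions below show where both transcripts part, with the last 15 bases of the shared exon 1 (chr15:91838406-91838420) in lower case and the first 15 bases of exon 2 in capitals (chr15:91841332-91841346 for Smgc, chr15:91870472-91870486 for Muc19).
Smgc: gctttgttggcaaagCTAGATCTTTCAGAA
Muc19: gctttgttggcaaagGTGCAGCACGAAGTC
The letters TATAAA stand at chr15:91838298-91838303, 30 bases before the start of this Smgc transcript, and 13.6% of 32851 RefSeq promoter windows of 300 bases held these letters on either strand. Shared exon bases make up 2.79% of the exons of Smgc and 1.04% of those of Muc19, and the 3′ ends of both genes are 73120 bases apart. Drop-seq and CITE-seq read transcripts from their 3′ ends, which lie outside the shared exon. Positions of reads were not examined, and after the first exon Smgc lies within the first intron of the Muc19 transcript on the same strand. Whether a Smgc UMI came from spliced Smgc or from unspliced RNA of the locus was therefore not tested.

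**Figure D1:**
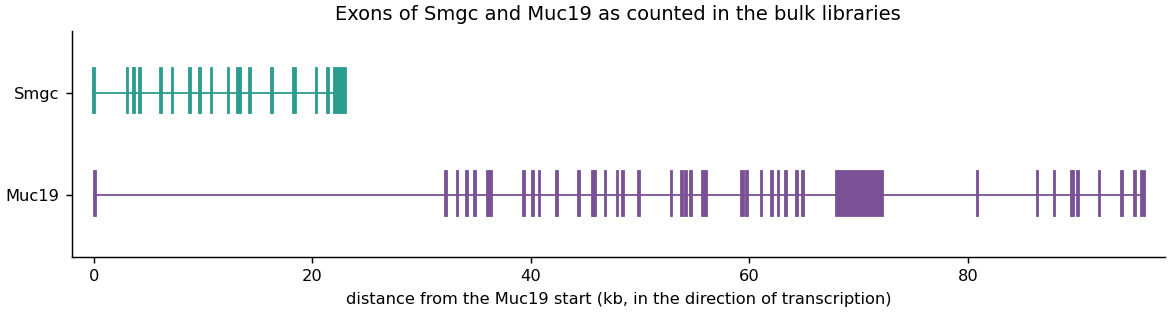
Exons of Smgc and Muc19 (boxes) along the distance from the start of Muc19 in kilobases, in the direction of transcription, with the shortest exons drawn slightly wider than scale. Both genes start together and overlap in exons over 95 bases, after which all Smgc exons lie inside the first intron of the Muc19 transcript, of 32051 bases.

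The 26 Drop-seq glands held between 650301 and 6994504 UMIs in 606 to 1209 kept cells, and 3 UMIs of a gene, the limit that a count of 0 allows, corresponded to 0.429 to 4.61 CPM (counts scaled to the same library total). Of 30082 barcodes, 31 occurred in more than 1 library. In the library labelled double-mutant P40 R1 (male), Xist had 591 UMIs and the Y-linked genes 1, and in the library labelled double-mutant P90 R5 (female), Xist had 0 and the Y-linked genes 194, so both went against their labelled sex and results that rest on them are given with and without them. All control P40 and all control P90 glands were run in different batches (B12 to B14 and B7 to B9), so for control glands batch cannot be told apart from stage.

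In control glands, the level of Smgc was higher in every female than in every male. Control P40 females had 8741, 2854 and 2811 CPM (R1, R4 and R6) and control P90 females had 38639, 17876 and 38920 CPM (R1, R2 and R6). Control males had 75.6, 632 and 0.317 CPM at P40 (R2, R3 and R5) and 641, 0 and 0.782 CPM at P90 (R3, R4 and R5). Every male gland lay below every female gland, a separation in this direction that 0.701% of the 11420 genes tested showed. The mean was 18307 ± 16786 CPM (SD, n = 6) in females and 225 ± 320 CPM (SD, n = 6) in males, and the log2 fold change of −6.02 (SE 1.80) had an adjusted p of 0.213 in edgeR, where 64 genes (0.560%) were called.

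Smgc in double-mutant glands ran from 2.24 to 12296 CPM, below the 3 control P90 females, and the labelled sexes overlapped. At P40, females had 10080, 5438, 4379 and 9210 CPM (R2, R4, R6 and R7), and the libraries labelled male had 12296, 188 and 2011 CPM (R1, R3 and R5). The highest value of that group came from R1, the library labelled male in which Xist was present. At P90, the libraries labelled female had 7027, 3980, 220 and 5.35 CPM (R3, R4, R5 and R7) and males had 2.24, 317.5 and 316 CPM (R1, R2 and R6). Here females R3 and R4 were high, and the library labelled female R5, which held Y-linked transcripts, and female R7 lay in the range of the males.

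Muc19 split the glands in another way. In control glands at P40 it reached 249.1, 216, 343 and 200.7 CPM in R2, R3, R4 and R6, 6.45 CPM in R1 and 0 in R5. At P90 only R3 stood above 100 CPM among controls, with 208 CPM, against 32.9, 12.3, 0, 0 and 4.599 CPM in R1, R2, R4, R5 and R6. Values from 200.7 to 343 CPM occurred in both sexes (R2 and R3 at P40 and R3 at P90 were males) and the rest of the control glands were close to or at 0.

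In double-mutant glands at P40, Muc19 had 754, 329, 533, 522 and 2605 CPM in R2, R3, R4, R6 and R7, and 13.1 and 21.5 CPM in R1 and R5. At P90 it had 538, 405, 3521 and 6560 CPM in R3, R4, R5 and R6, and 0, 0 and 0.509 CPM in R1, R2 and R7. The same split into glands with at least 329 CPM and glands with 21.5 CPM or less was present, and 5 of the 26 glands had no Muc19 UMI.

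**Figure D2:**
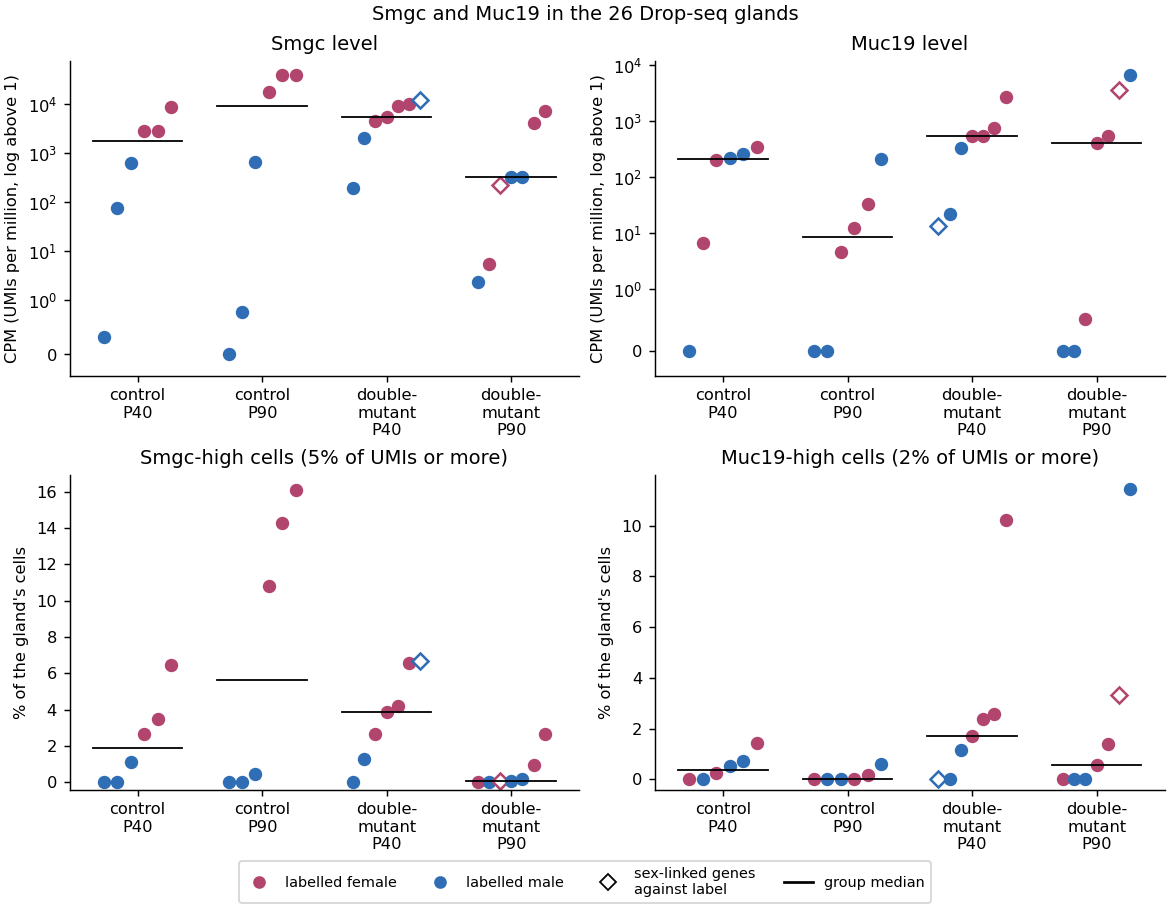
Level of Smgc and Muc19 per gland (top, CPM, log scale above 1) and share of Smgc-high and Muc19-high cells (bottom, percent of the gland's kept cells) in the 4 groups, with points for glands, colours for the labelled sex, open diamonds for the 2 libraries whose sex-linked genes go against their label and lines for group medians. The 6 control males lie at 641 CPM of Smgc or less, below all control females, and Muc19 is either above 200 or below 33 CPM in every gland.

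Across all 26 glands, the difference by genotype was not called for either gene by edgeR with sex and stage as covariates, while 22.0% of 10488 genes were. Smgc had a log2 fold change of −0.82 (SE 1.59, adjusted p = 0.745) and Muc19 of 2.74 (SE 1.31, adjusted p = 0.126). Scaled by library totals alone, where the median of all genes stood at 0.68 instead of 0.02, Muc19 had 3.59 (adjusted p = 0.0378), and without the filter on low counts 2.72 (adjusted p = 0.00133). Without double-mutant P90 R6, Muc19 had 1.05 (adjusted p = 0.634).

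Within stages the values for double-mutant against control glands took opposite signs for Smgc. At P40 its log2 fold change was 2.08 (SE 1.49, adjusted p = 0.403) and at P90 −3.17 (SE 1.47, adjusted p = 0.165), where 1.36% and 8.07% of 11420 genes were called by edgeR. The interaction of genotype and stage for Smgc was −5.25 (SE 2.03, adjusted p = 0.780), with 0.00876% of genes called. Muc19 had 1.42 (SE 1.61, adjusted p = 0.619) at P40 and 4.14 (SE 1.79, adjusted p = 0.139) at P90. Without the filter on low counts, 15 values of the pair over all comparisons of glands passed the threshold, and the cause was not tested.

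Between P90 and P40, Smgc had a log2 fold change of 1.55 (SE 1.48, adjusted p = 0.657) in control glands, with 5.04% of genes called by edgeR, and −3.70 (SE 1.504, adjusted p = 0.413) in double-mutant glands. In the latter comparison no gene was called by edgeR, 1122 had an unadjusted p under 0.05, and DESeq2 called 27. Muc19 had −2.45 (SE 1.76, adjusted p = 0.520) in control and 0.27 (SE 1.62, adjusted p = 0.979) in double-mutant glands. With genotype compared within each sex, Smgc had −2.79 (SE 1.51, adjusted p = 0.332) in females and 1.97 in males (adjusted p = 0.428), and Muc19 had 2.63 (adjusted p = 0.432) and 2.84 (adjusted p = 0.318), beside 1.44% and 7.44% of genes called by edgeR. Without the pair of libraries whose sex-linked genes went against their label, the value for Smgc in males was −0.11 (adjusted p = 0.970).

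The share of cells in each class was compared with the gland as the replicate. Smgc-high cells made up 8.95% ± 5.63 (SD, n = 6) of control female glands, from 2.65% to 16.1%, and 0.267% ± 0.464 (SD, n = 6) of control male glands, from 0% to 1.13%. This difference of −8.69 percentage points passed the test (exact permutation test, two-sided, p = 0.00216, adjusted p = 0.0303 over 14 tests), and it was the only one of the 14 that did. Permuted within batches, its adjusted p was 0.333, but only B9, B12 and B14 held control glands of both sexes. With so few arrangements, the test within batches could not pass the threshold. With 1 control gland left out, the adjusted p was 0.0570 to 0.0606 for every gland except P40 R4 (0.0494).

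The next smallest p-values did not pass the correction. Smgc-high cells made up 0.558% ± 0.973 of double-mutant glands at P90 and 3.62% ± 2.52 at P40 (SD, n = 7 each; exact permutation test, adjusted p = 0.0579). Muc19-high cells made up 2.48% ± 3.71 (SD, n = 14) of double-mutant and 0.312% ± 0.443 (SD, n = 12) of control glands, a difference of 2.17 percentage points (permutation test, p = 0.0124, adjusted p = 0.0579). Left out one at a time, 5 glands gave an adjusted p under the threshold for Muc19-high cells, the lowest being 0.0484 without double-mutant P90 R7. Double-mutant P40 R7 and P90 R6, with 10.2% and 11.4%, stood apart from all other glands, of which none exceeded 3.31%.

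Most UMIs of each gene came from few cells. The 794 cells above the Smgc threshold, including the 5 high in both, devoted a median of 28.8% of their UMIs to Smgc (quartiles 18.2% and 37.4%, highest 58.9%) and held 93.1% of all 346557 Smgc UMIs. The 379 cells above the Muc19 threshold devoted a median of 4.32% to Muc19 (highest 13.1%) and held 76.8% of all 29659 Muc19 UMIs. Few Smgc cells lay near the threshold, with 38 at 4% to 5% and 34 at 5% to 6%, and more Muc19 cells did, with 59 at 1.6% to 2% and 37 at 2% to 2.4%.

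The classes were not symmetrical in the other gene. Among Muc19-high cells, 72.2% held at least 1 Smgc UMI (96.9% in control and 69.9% in double-mutant glands), against 20.6% of cells that were neither. Among Smgc-high cells, 15.2% held a Muc19 UMI (8.81% in control and 27.7% in double-mutant glands), against 4.24% of cells that were neither. The median depth was 1077 UMIs in Muc19-high, 1195 in Smgc-high and 1572 in neither cells. Free RNA adds to such shares: in cells that should lack both genes (immune and endothelial cells), a Smgc UMI was found in up to 83.4% of cells of a gland (control P90 R6) and a Muc19 UMI in up to 11.4% (control P40 R3).

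**Figure D3:**
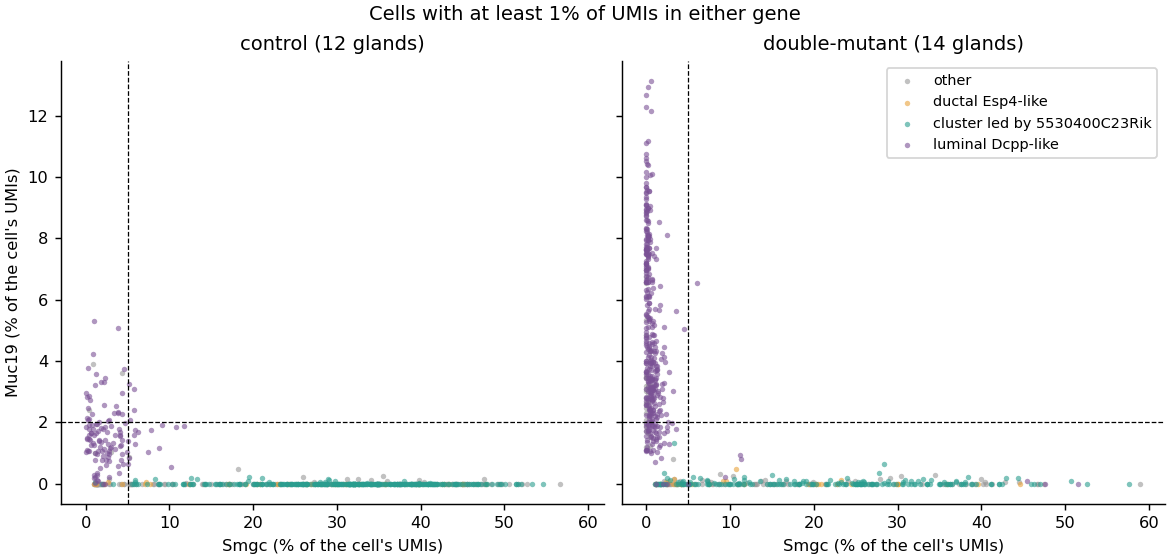
Each Drop-seq cell with 1% or more of its UMIs in either gene, by its percent of UMIs from Smgc (horizontal) and Muc19 (vertical), for control and double-mutant glands, with dashed lines at 5% and 2% and colours for the cluster. The cells follow the axes, with 5 cells above both lines.

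The 5 cells above both thresholds came from control P40 R3 (3 cells), control P90 R3 and double-mutant P90 R5, and all 5 fell into the same cluster as most Muc19-high cells. They devoted 5.11% to 6.02% of their UMIs to Smgc and 2.07% to 6.53% to Muc19, so they lay just above the Smgc threshold and far below the median of Smgc-high cells. Their depth was 1378 to 3106 UMIs. The sort gates excluded clumps before capture, but no doublet caller was run and no doublets were removed, and the part of droplets with more than 1 cell in these 5 was not tested.

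Clustering with both genes held out placed the classes in different cells. Of the Smgc-high cells, 500 of 794 (63.0%) were in 1 cluster of 574 cells, led by 5530400C23Rik, Fgg and Gm5885, of which 87.1% were Smgc-high. This cluster reached fewer than 3 markers of any type and was left unnamed, and Gstt1, an intercalated duct gene, was among its leading genes. Of the Muc19-high cells, 350 of 379 (92.3%) were in a luminal Dcpp-like cluster of 1983 cells, named from Dcpp1, Dcpp2 and Dcpp3, of which they were 17.7%.

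Ordered by level over glands, Smgc was highest in the cluster led by 5530400C23Rik, with a median of 233569 CPM over 12 glands (155184 to 324566), then in ductal Esp4-like cells with 7017 CPM over 22 glands (0 to 82640), then in luminal Dcpp-like cells with 1695 CPM over 14 glands (262 to 11316). The first did not overlap the others, and the latter pair overlapped. Muc19 was highest in luminal Dcpp-like cells, with a median of 2714 CPM over 14 glands (664 to 45602), followed by the cluster led by 5530400C23Rik with 159 CPM (0 to 628) and luminal Clu-like cells with 48.7 CPM (0 to 1484). Of this pair only the luminal Clu-like cells overlapped the luminal Dcpp-like cells. Clusters of lower median also reached into that range in their highest gland, among them myoepithelial-like (2230 CPM), basal-like (2015 CPM) and fibroblast-like cells (1372 CPM).

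Over the 27 clusters, the genes whose mean level was most like that of Smgc were Gm9761 and Col11a1 (Spearman's rho 0.70 each), Pard3b, 9330151L19Rik and A830039N20Rik. Among them only Col11a1 was highest in the cluster led by 5530400C23Rik. The others peaked in other clusters, at a low 13.7 to 23.9 CPM. The genes most like Muc19 were BC048546 (0.94), 1810055G02Rik (0.87), Frmd4b, Plin2 and Arf4, of which only BC048546 was highest in luminal Dcpp-like cells. Between Smgc and Muc19 themselves rho was 0.38. These values describe 27 clusters that share libraries and are not independent.

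The place of the Smgc UMIs differed between glands of high and low Smgc. In all 6 control female glands the cluster led by 5530400C23Rik held more of them than the ductal Esp4-like or luminal Dcpp-like cells, from 44.2% in P40 R6 to 82.0% in P90 R1, and luminal Dcpp-like cells held 14.7% or less. In the 3 control male glands with at least 50 Smgc UMIs (P40 R2, P40 R3 and P90 R3), luminal Dcpp-like cells held 94.4%, 96.1% and 90.8%, and the cluster led by 5530400C23Rik held 0.0929% or less. Among double-mutant glands, male P40 R3 (97.2%) and the library labelled female P90 R5 (90.8%) had the same distribution as these males. In male P90 R6 the cluster led by 5530400C23Rik held 71.4%, but 1 Smgc-high cell held all of this. In male P40 R5 that cluster held 21.4% and luminal Dcpp-like cells 3.13%. In male P90 R2 that cluster, ductal Esp4-like and luminal Dcpp-like cells all held 0%. Muc19 UMIs, in contrast, lay in luminal Dcpp-like cells in every gland with at least 50 of them, from 74.4% to 97.1%.

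**Figure D4:**
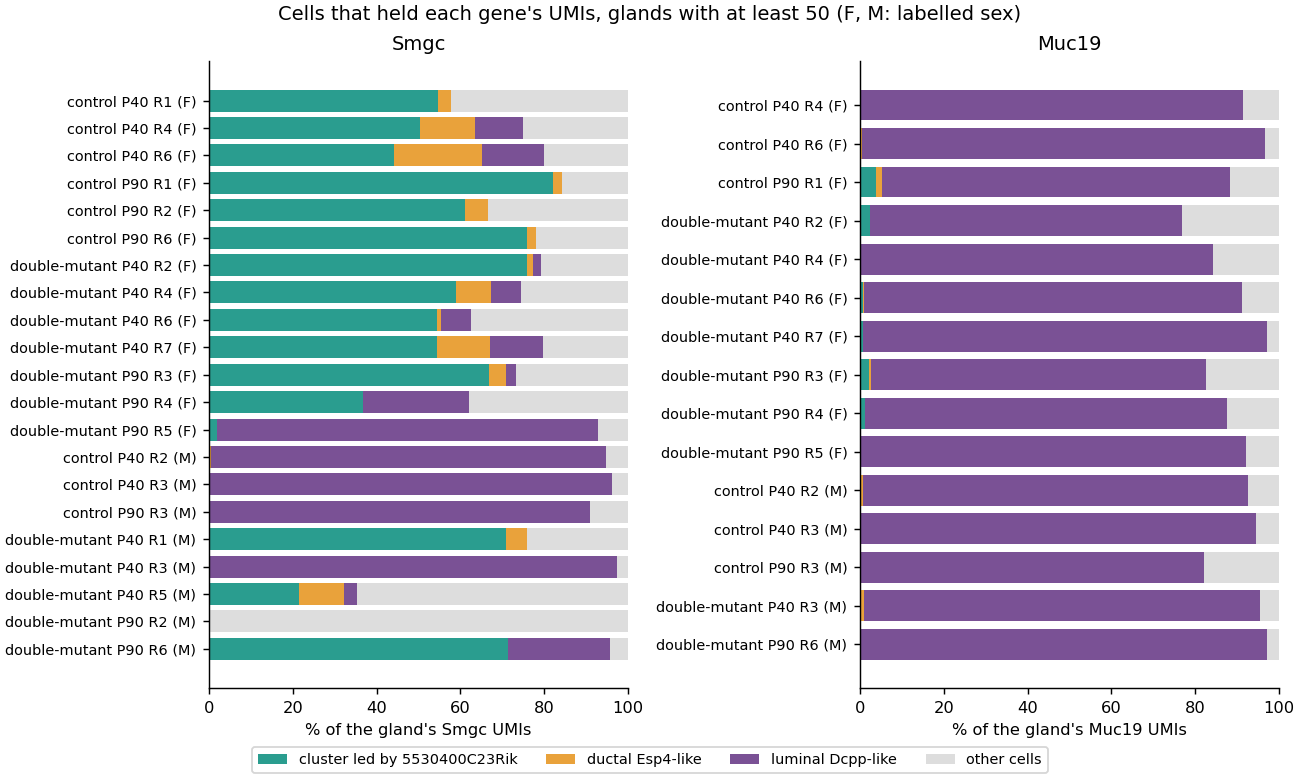
Share of each gland's Smgc UMIs (left) and Muc19 UMIs (right) by the cluster of the cell, in percent, for glands with at least 50 UMIs of the gene, with F and M for the labelled sex. Control male bars for Smgc are 90.8% or more luminal Dcpp-like, control female bars 14.7% or less, and Muc19 bars 74.4% or more in all glands.

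Muc19 moved with the presence of luminal Dcpp-like cells. In the 14 glands with 10 or more such cells, Muc19 stood at 200.7 to 6560 CPM, and in the 12 glands with fewer it stood at 32.9 CPM or less, and 8 glands had none of these cells. Mucous and demilune cells are known from the sublingual gland, and how much sublingual tissue a dissected gland held was not measured, so its part in these levels was not tested. In bulk or summed values, fewer cells of a type and less RNA per cell cannot be told apart. The next comparison counted Muc19-high cells within the cluster.

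Within the luminal Dcpp-like cluster, Muc19-high cells were more frequent in double-mutant than in control glands, without overlap. They made up 5.74%, 1.74%, 5.70% and 0.966% of these cells in control P40 R2, R3, R4 and R6 and 4.29% in control P90 R3. They made up 12.96%, 10%, 15.9%, 17.0% and 44.6% in double-mutant P40 R2, R3, R4, R6 and R7, and 30%, 10.8%, 57.1% and 51.7% in double-mutant P90 R3, R4, R5 and R6. All 9 double-mutant glands lay above the highest control gland, and they spread over a range from 10% to 57.1%.

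The means were 27.8% in 9 double-mutant and 3.69% in 5 control glands, a difference of 24.1 percentage points (exact permutation test, two-sided, p = 0.000999, the smallest it can give, adjusted p = 0.004 over 8 tests). Summed over the whole cluster, Muc19-high cells included, the level of Muc19 ran from 664 to 1319 CPM in control and from 2154 to 45602 CPM in double-mutant glands, a mean log2 difference of 2.58 (exact permutation test, p = 0.000999, adjusted p = 0.004). At P40 alone, with 5 double-mutant and 4 control glands, the differences were 16.6 percentage points and 1.86 on the log2 scale (exact permutation test, p = 0.0159 each, the smallest it can give, adjusted p = 0.0213). This comparison was added after the values per gland had been seen.

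Both parts of that share were then compared over all cells of a gland. Muc19-high cells of the cluster made up 3.56% of all cells in the double-mutant and 0.642% in the control glands, with overlap (exact permutation test, p = 0.0160, adjusted p = 0.0213). The other luminal Dcpp-like cells made up 7.96% and 19.6%, a difference of −11.6 percentage points (exact permutation test, p = 0.00999, adjusted p = 0.0213). Permuted within batches, the adjusted p was 0.25 for the Muc19-high and 0.0741 for the other cells, but with few arrangements neither could pass after correction. With Muc19-high set at 1%, the adjusted p was 0.247 for the Muc19-high cells. Without control P40 R6 the adjusted p of both was 0.0559, as it was for both P40 differences above. Dcpp1, Dcpp2 and Dcpp3 themselves were not called between genotypes in whole glands (0 of 3, median log2 fold change −0.67, against 0.02 over all genes).

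Batch and depth stood as follows beside this difference. The double-mutant glands were higher in each of the 4 batches that held both genotypes (B8, B12, B13 and B14), for example 30% against 4.29% in B8 and 17.0% against 1.74% in B13. Permuted within batches, the adjusted p was 0.0741. The smallest p possible in this permutation test was 0.0278, too large to pass after the correction over 8 tests. The median depth of luminal Dcpp-like cells was 3210.5 to 5161 UMIs in the 5 control and 691.5 to 3820.5 UMIs in the 9 double-mutant glands. With each cell thinned to 500 UMIs the difference was 22.6 percentage points, but shallower cells had to be left out, which were 8.71% and 33.2% of all cells in double-mutant P40 and P90 glands and 0.0521% and 6.98% in control P40 and P90 glands. Without the library labelled female P90 R5 the difference was 20.4 (exact permutation test, adjusted p = 0.00622).

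**Figure D5:**
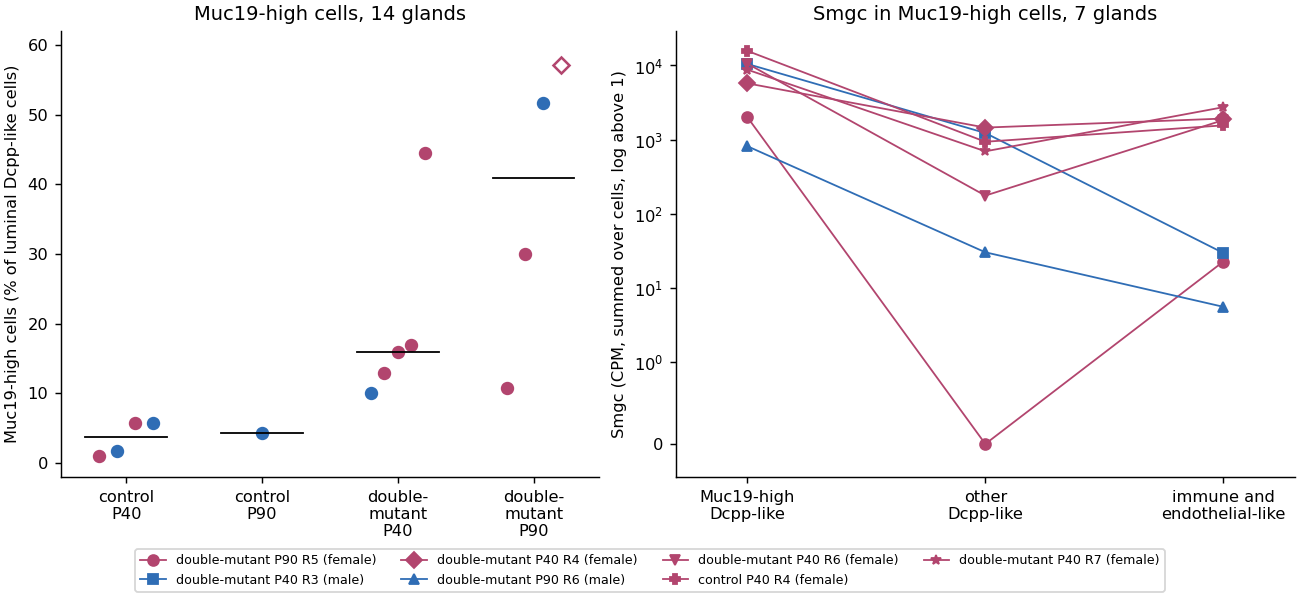
Left, Muc19-high cells as percent of the luminal Dcpp-like cells in the 14 glands with at least 10 such cells, with lines for medians, colours for labelled sex as in the legend on the right and an open diamond for the library labelled female P90 R5; the control glands lie at 5.74% or less and the double-mutant glands at 10% or more. Right, Smgc in CPM (log scale above 1) in Muc19-high cells, other luminal Dcpp-like cells and immune and endothelial-like cells of 7 glands, joined by lines; in all 7 the Muc19-high cells are highest.

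Muc19-high cells also carried Smgc above the cells around them. The 7 glands with at least 10 Muc19-high and 10 other luminal Dcpp-like cells were compared within the gland, with immune myeloid-like, T/NK-like and endothelial-like cells as a measure of free RNA. Cells with 5% or more of their UMIs from Smgc were left out of both luminal Dcpp-like groups, but not of the non-epithelial cells. In double-mutant P40 R7, for example, 106 of 107 other cells were compared. This lowered the level of Smgc in the other cells, and the comparison with such cells kept was not run. In Muc19-high, other luminal Dcpp-like and non-epithelial cells, Smgc had 15741, 933 and 1554 CPM in control P40 R4. In double-mutant P40 glands it had 10480, 1225 and 29.4 CPM in R3, 5736, 1450 and 1920 CPM in R4, 10576, 175 and 1829 CPM in R6, and 8775, 693 and 2732 CPM in R7. In double-mutant P90 glands it had 2000, 0 and 22.4 CPM in R5 and 812, 30.02 and 5.51 CPM in R6.

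Among the cells compared, the Muc19-high cells were highest in 7 of 7 glands. The mean log2 difference was 4.91 (SD 2.94) to the other luminal Dcpp-like cells and 4.42 (SD 2.79) to the non-epithelial cells (exact paired permutation test, two-sided, p = 0.0156 each, the smallest it can give, adjusted p = 0.0234 over 3 tests). With Smgc-high cells left out, the other luminal Dcpp-like cells did not differ from non-epithelial cells beyond the spread between glands (−0.49, SD 3.38, exact permutation test, p = 0.688). Since Dcpp1 to 3 took 37.4% to 72.0% of the UMIs of the other cells, the comparison was repeated with those genes left out of the totals, and gave 3.70 and 4.36 (exact permutation test, adjusted p = 0.0234). A Smgc UMI was found in 40.8% to 100% of the Muc19-high cells of these glands.

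The luminal Dcpp-like name of the cluster rests on its other cells. Summed over Dcpp1, Dcpp2 and Dcpp3, the Muc19-high cells had 473 to 59925 CPM, the other cells of the cluster 374001 to 719938 CPM, and non-epithelial cells of the same glands 1679 to 159963 CPM. In 5 of the 7 glands the Muc19-high cells were below the non-epithelial cells.

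In the reverse direction, Muc19 stood at 28.4 to 1015 CPM in the Smgc-high cells of 12 of the 13 glands with at least 10 of them, and at 14427 CPM in control P40 R3. Non-epithelial cells of these 13 glands had 0 to 425 CPM. In double-mutant P40 R7 the Smgc-high cells lay below them (355 against 369 CPM), and in double-mutant P40 R2 and R6 they had 698 against 425 and 247 against 166 CPM. The ratio of Muc19 to Smgc UMIs in Muc19-high cells ranged over 13 glands (at least 4 such cells each) from 0.612 in control P90 R3 to 88.8 in double-mutant P90 R6. Between double-mutant glands at P90 and P40, the log2 ratio was 3.47 ± 2.32 (SD, n = 4) and 2.25 ± 0.780 (SD, n = 5; exact permutation test, adjusted p = 0.400). None of 6 tests on this ratio or its parts passed.

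Smgc-high and Muc19-high cells of the same gland could be compared in 6 glands, all from females (control P40 R4, double-mutant P40 R2, R4, R6 and R7 and double-mutant P90 R3). With Smgc and Muc19 left out of totals and test, 361 of 917 genes (39.4%) were called by edgeR, 170 higher (18.5%) and 191 lower (20.8%) in Smgc-high cells, of which 96 and 137 had the same direction in all 6 glands. Without the gland as a block 146 of 453 tested genes were called, and without double-mutant P40 R7 237 of 788. The number of genes tested was small because the summed classes were shallow.

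The genes with the largest changes toward Smgc-high cells were chosen among those with the same direction in every gland. Pip, the prolactin-induced protein of saliva, had 89051 ± 44846 CPM in Smgc-high and 1486 ± 1158 CPM in Muc19-high cells (SD, n = 6), a log2 fold change of 6.11 (SE 0.46, adjusted p = 6.89e-14 in edgeR). A630073D07Rik had 9102 and 59.6 CPM (log2 fold change 7.14), Hp, which encodes haptoglobin, 420 and 4.22 CPM (5.65), Car8, a carbonic anhydrase-related protein, 293 and 3.32 CPM (5.37), and Clu, which encodes the secreted chaperone clusterin, 431 and 20.8 CPM (4.98). RP24-89H23.2, Gm12873, Pde4b, Sval2 and Mia had no UMI in the Muc19-high cells of any of the 6 glands and 554, 623, 284, 305 and 279 CPM in the Smgc-high cells. Since they were at 0 in all Muc19-high sums, no fold is given for these. In all Muc19-high sums Hp and Car8 had 1 UMI each, Clu 3 and A630073D07Rik 17. All these genes except Pip passed the filter on counts through the Smgc-high cells, which fixed their direction, and the folds given for them rest on few UMIs.

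The genes with the largest changes toward Muc19-high cells were chosen in the same way. BC048546, the gene most like Muc19 over clusters, had 52548 ± 6471 CPM in Muc19-high and 1640 ± 1197 CPM in Smgc-high cells (SD, n = 6), a log2 fold change of −5.09 (SE 0.36, adjusted p = 1.59e-14 in edgeR). Pigr, the receptor that carries polymeric immunoglobulins into saliva, had 4118 and 156 CPM (−4.39), Gal, which encodes the peptide galanin, 462 and 5.63 CPM (−5.74), and B3gnt6, the core-3 O-glycan synthase, 282 and 5.03 CPM (−5.27). Mfsd4 (−5.84), Cgref1 (−5.73), Sel1l3 (−5.06), the imprinted RNA Meg3 (−4.97), Rnf128 (−4.50) and Gde1 (−4.49) followed, each with the same direction in 6 of 6 glands. In all Smgc-high sums Gal had 1 UMI, Sel1l3 and Meg3 2 each, Cgref1 and Rnf128 3 each, Mfsd4 4 and Gde1 8. These genes passed the filter on counts through the Muc19-high cells, which fixed their direction, and their folds rest on few UMIs.

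Of 20 mucin O-glycosylation enzymes, 4 had enough counts to be tested between both classes, and all 4 were called higher in Muc19-high cells, beside 20.8% of all 917 genes (median log2 fold change −3.88, against 0.01). B3gnt6, Galnt12 and St3gal1 had 1, 2 and 10 UMIs in all Smgc-high sums and 78, 59 and 150 in the Muc19-high sums. They passed the filter through the class in which they were high, which fixed their direction. Only Galnt7 had enough counts in both classes. The 4 were B3gnt6, Galnt12 with 264 against 5.86 CPM (−4.28), the core-1 sialyltransferase St3gal1 with 530 against 42.2 CPM (−3.48) and Galnt7 with 590 against 262 CPM (−1.09). Of 14 mucous cell regulators and packaging genes, 3 were tested and all 3 were called higher in Muc19-high cells, Creb3l1 (−3.45), Spdef (−1.67) and Creb3l4 (−1.22). They had 11, 33 and 26 UMIs in all Smgc-high sums and 164, 137 and 78 in the Muc19-high sums. These 3 also passed the filter through the Muc19-high cells, which fixed their direction. Tests of a few members that passed the filter on counts do not speak for the whole lists.

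Of 11 intercalated duct genes, 5 were tested between the classes and 4 were called higher in Smgc-high cells, beside 18.5% of all genes tested, the simple-epithelial keratins Krt8 (1.24) and Krt18 (0.93), Wfdc18 with 8710 against 3505 CPM (1.46) and Gstt1. Aqp5, the apical water channel, was lower in Smgc-high cells (−1.05), with 520 against 1110 CPM. Of 8 acinar genes 5 were tested, of which Prol1 (1.92), Car6 (1.07) and Pip were higher in Smgc-high cells and Aqp5 lower. The 3 Dcpp genes were lower (−0.82, −0.77 and −1.12), but in 2 of 6 glands they had the opposite direction and DESeq2 called none of them. Prol1 was the only mucin-list gene tested, and none of the 17 granular duct genes was.

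Within the luminal Dcpp-like cluster of the same 7 glands, Muc19-high cells differed from the other cells in 495 of 2652 genes (18.7%), 276 higher (10.4%) and 219 lower (8.26%; edgeR, gland as block). This split depends on the scaling, because the Dcpp genes filled much of the other cells: with library totals alone 2545 genes were higher and 31 lower, and the median gene moved from 0.08 to 2.29. The direction in each gland was read from CPM without TMM, by which 229 of the 276 and 24 of the 219 moved alike in all 7 glands. Other settings also changed which genes passed the filter: 196 of 853 were called without the gland block, 200 of 746 with sums thinned to the same total, and 322 of 1722 without double-mutant P40 R7.

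Of the 10 genes with the largest falls in Muc19-high cells, Mup6, 1810011O10Rik and B3galt5 had no UMI in these cells of any gland and 263, 95.5 and 77.9 CPM in the other cells. Dcpp1, Dcpp2 and Dcpp3 had log2 fold changes of −8.50, −8.44 and −8.52 with TMM and −6.32, −6.29 and −6.40 with totals. The salivary BPI-fold protein gene Bpifa2 had −9.14 and −6.86, the major urinary protein gene Mup4 −9.11 and −7.09, Scgb2b24 −7.22 and −5.45 and Wfdc18 −6.71 and −4.60, all lower in 7 of 7 glands. Pip, from the acinar list, had −5.88 and −3.72. Dcpp1, Dcpp2, Dcpp3, Mup4, Bpifa2 and Mup6 were also among the leading genes of the cluster itself. Mup4 and Scgb2b24 had 2 UMIs each in all Muc19-high sums. Like Mup6, 1810011O10Rik and B3galt5, they passed the filter on counts through the other cells, which fixed their direction. Prol1, a salivary mucin-like protein gene, had −2.62 with TMM and −0.42 with totals (adjusted p = 0.103 in edgeR).

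Of 5 mucous cell regulators tested, 4 were called higher in Muc19-high cells with TMM, as were 10.4% of all genes, and Agr2 was not called. Spdef had 570 CPM in Muc19-high and 30.9 CPM in the other cells (log2 fold change 1.88), Foxa1 198 and 9.89 CPM (1.82), Creb3l4 314 and 31.5 CPM (1.16) and Creb3l1 808 and 128 CPM (0.83). Of 8 O-glycosylation enzymes tested, 4 were called higher, against the same 10.4%, among them Galnt6 (3.45), Galnt4 (3.34) and Galnt7 (1.495), and Galnt3, B3gnt6 and St3gal1 were not called with TMM. Spdef, Foxa1, Creb3l4, Galnt6 and Galnt4 passed the filter on counts through the Muc19-high cells, which fixed their direction in CPM. Galnt6 and Galnt4 had 6 and 11 UMIs in all sums of the other cells. The gluconeogenic enzyme gene Pck1 (3.61), the actin-bundling gene Pls1 (3.13), the Golgi calcium pump gene Atp2c2 (3.05), Ank2 (3.04), Meg3 (3.03), Lman1l (2.98), the processing enzyme gene Cpe (2.88) and Casc4 (2.83) were also called higher with TMM. Each had higher CPM in 7 of 7 glands, but so had B3gnt6 and St3gal1, so this count does not set the called genes apart. All genes from Pck1 to Casc4 passed the filter on counts through the Muc19-high cells, which fixed their direction in CPM. Pck1, Pls1, Atp2c2 and Ank2 had 10, 9, 9 and 14 UMIs in all sums of the other cells, so their folds rest on few UMIs.

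In whole glands few genes of the mucous lists were called by genotype. Of 14 tested O-glycosylation enzymes Galnt4 and Gcnt1 rose in double-mutant glands, with a median of 0.01 against 0.02 over all genes, and none of 5 mucous cell regulators was called (edgeR, 22.0% of all genes called). Of 16 tested granular duct genes, growth factor and kallikrein genes known as higher in males, 15 fell in double-mutant glands (median −2.49), and 8 were higher in control males than in control females (median 3.97, beside 0.560% of all genes called in either direction). Of 10 intercalated duct genes Kit, Krt19 and Aqp5 were called, 2 of them higher and 1 lower, and of 7 acinar genes Aqp5 was called lower. Of 2 tested mucin-list genes Muc13 was called lower.

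CITE-seq at P70 gave Smgc in all 4 glands and almost no Muc19. Smgc had 8004 and 9853 CPM in the double-mutant glands R1 and R2 and 4928 and 4596 CPM in the control glands R1 and R2, and both double-mutant glands were above both controls. Both double-mutant glands are labelled female, while control R1 is labelled male and control R2 female, so sex was not separated from genotype. After TMM scaling, the log2 fold change of 0.19 (SE 0.30, adjusted p = 0.699) was not called by edgeR, where 13.7% of 10058 genes were. Muc19 had 3.60 and 4.50 CPM in double-mutant and 0 and 2.70 CPM in control glands, under the filter on counts. Smgc-high cells made up 2.51% and 1.81% of double-mutant and 3.13% and 3.16% of control cells. Both control libraries, of which one is labelled male, held Xist and Y-linked UMIs, so no sex was used.

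In bulk tissue Smgc was among the most abundant transcripts of the control gland, with 63564 reads or 473.9 TPM (a level scaled by exon length and depth), rank 21 of 19807 genes counted. In the double-mutant gland it had 5110 reads or 38.4 TPM, rank 299 of 19562. The ratio was 0.0811 (95% interval 0.0788 to 0.0834, counting error only). Muc19 had 29 reads (0.0810 TPM) in the control and 13 reads (0.0366 TPM) in the double-mutant gland, a ratio of 0.452 (0.216 to 0.898). Per length, Smgc stood 5852 times as high as Muc19 in the control and 1050 times in the double-mutant gland, and Dcpp1 had 10.4 and 7.36 TPM. With 1 library each, of P70 and P100, genotype and stage cannot be told apart and there is no replicate check.

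Across the 26 glands, log2(CPM + 1) of Smgc and Muc19 had a Pearson's r of 0.494 (permutation test, p = 0.0107, adjusted p = 0.0322 over 3 sets of glands) and a Spearman's rho of 0.320 (permutation test, p = 0.110, adjusted p = 0.329). Without the pair of glands farthest from the median of Smgc, control P90 R4 and P40 R5, r was 0.343. Within control glands r was 0.497 (permutation test, p = 0.102), and 0.110 without the same pair. Within double-mutant glands r was 0.540 (permutation test, p = 0.0443, adjusted p = 0.0665), and 0.00755 without P90 R1 and P90 R7, so that the relation rested on glands with almost no transcripts of either gene.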

How the data were processed

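Live cells sorted from individually processed submandibular glands were profiled by Drop-seq and CITE-seq, and bulk mRNA from 2 glands. The authors aligned reads with STAR to mm10 with GENCODE vM7 annotation plus Cre and EYFP, keeping barcodes above the knee of the read curve, and deposited UMI counts of each cell by gene. For bulk RNA they deposited unstranded featureCounts counts per gene over exons, leaving out reads that overlap several genes. Antibody tables of 4 samples were not used.

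Cells with at least 100 genes and under 15% mitochondrial UMIs were kept (CITE-seq also under 2500 genes), which left 23346 of 26987 and 2535 of 3095 barcodes. Counts were summed per gland and tested with edgeR 4.0.16 (quasi-likelihood, TMM, filterByExpr, Benjamini-Hochberg, called at adjusted p under 0.05) in R 4.3.3, with sex and stage as covariates over all glands, or over genotype and stage groups with sex, or genotype and sex groups with stage. Class comparisons had the gland as a block and left Smgc and Muc19 out. Shares per gland were tested by exact or 100000-resample permutation, two-sided. Cells were clustered with scanpy 1.11.5 without both genes, and clusters named from at least 3 markers. DESeq2 1.42.0 was an alternative. Scripts were tested on simulated data. TPM from bulk counts used the deposited exon lengths, and coordinates came from GENCODE vM21 on GRCm38. Intervals and floors cover counting error only.

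Named genes were Smgc and Muc19 everywhere, the 10 with the largest change in each direction among called genes that moved alike in every gland, the 5 most like each gene over clusters, and up to 4 members of each list by mean level. Genes outside this rule were named for their place in a list. Members, lists and rules were chosen with earlier results of these data known. Replicates are separate glands as labelled. Replicate numbers did not pair control with double-mutant glands: of 12 pairs, 3 had a correlation of deviations over 0.1 (range −0.278 to 0.456).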

Additional observations from a re-analysis of the deposited data

Results flagged for a closer look

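Of 16 sets of values per group of glands, 7 had a gland whose gap to the nearest other, divided by the range, passed Dixon's 95% limit, which chance passes in about 1 of 20 sets. Double-mutant P40 R7 stood apart in Muc19, with 2605 CPM and 10.2% Muc19-high cells. Double-mutant P90 R6 stood apart with 11.4% Muc19-high cells, and P90 R3 with 2.64% Smgc-high cells. Control P40 R1 stood apart with 8741 CPM of Smgc. Control P90 R3 stood apart with 208 CPM of Muc19 and 0.623% Muc19-high cells, and it was the only control P90 gland with 10 or more luminal Dcpp-like cells.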

How the results depend on the processing

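Over all alternatives that left no gland out, 281 values kept direction and side of the threshold, 21 reversed, 19 newly passed, 17 no longer passed and 4 moved. With 1 gland left out these numbers were 1050, 34, 6, 30 and 2. Values below are log2 fold changes from edgeR unless said otherwise, and causes were not tested. With the replicate number as a block, reversals were Smgc by genotype (0.11) and Muc19 by sex in control glands (−0.80), by sex in double-mutant glands (−2.26) and in the genotype and sex interaction (−1.47), and the block changed no other call of glands. With batch in the model, Smgc by genotype was 0.60 and by stage in control glands −3.87, and Muc19 was 0.72 by stage in control glands, −1.28 by sex in double-mutant glands, −0.031 by genotype in males and −3.69 in the genotype and sex interaction. With library totals, Muc19 was 3.59 by genotype (adjusted p = 0.0378) and −0.049 in the genotype and sex interaction. Without the filter on low counts, values that passed were, for Smgc, 2.05 and −3.27 by genotype at P40 and P90, −2.89 and 1.94 in females and males, −3.81 by stage in double-mutant glands, −6.06 by sex in control glands, and −5.32 and 4.83 in the interactions of genotype with stage and sex. For Muc19 they were 2.72 by genotype, 1.41 and 4.15 at P40 and P90, 2.61 and 2.87 in females and males, −2.54 by stage in control glands and 2.74 in the genotype and stage interaction. Without the pair of libraries that went against their label, Muc19 by stage in double-mutant glands was −0.67, Smgc by genotype in males −0.11, and Smgc in other luminal Dcpp-like against non-epithelial cells 0.18, which was 0.66 with Dcpp1 to 3 left out of totals.

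In percentage points, Smgc-high cells by stage in double-mutant glands differed by −3.94 with the threshold at 2% (permutation test, adjusted p = 0.0490), and by sex in control glands by −8.69 within batches (permutation test, adjusted p = 0.333). That test within batches could not pass, since few batches held control glands of both sexes. Muc19-high cells by stage in double-mutant glands differed by 1.18 with the threshold at 5%, 0.422 thinned, 0.524 in cells of at least 500 UMIs and 0.110 without double-mutant P90 R4, by sex in control glands by −0.00125 at 5% and −0.0169 thinned, and by sex in double-mutant glands by 0.665 at 5%. Called genes numbered 146 of 453 (Smgc-high against Muc19-high) and 196 of 853 (Muc19-high against other luminal Dcpp-like) without the gland block, and in the latter 2576 of 2652 with totals and 200 of 746 with thinned sums. Fewer genes passed the filter without the block and with thinned sums. Pearson's r was 0.293 over all glands with a pseudocount of 10, and 0.675 in control and 0.593 in double-mutant glands with 0.1. Within luminal Dcpp-like cells and permuted within batches, the genotype differences of 24.1, 2.58, 2.92 and −11.6 (P40 alone 16.6, 1.86, 2.68 and −11.3), for the Muc19-high share, the log2 level, the share of the gland and the other cells, no longer passed. With 36 arrangements over all glands and 12 at P40, the smallest p that this permutation test can give was 0.0278 and 0.0833. After the correction over 8 tests, none of them could pass. With Muc19-high at 1%, the share of the gland (2.18, and 2.08 at P40), the P40 share (16.4) and the P40 other cells (−10.7) did not pass, and at 5% the P40 values 3.12, 0.601 and −9.26 did not. These alternatives of luminal Dcpp-like cells, library totals in the comparisons of classes and the Smgc comparison in Muc19-high cells were chosen after seeing the data.

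With 1 gland left out, Muc19 ranged from −1.10 (without double-mutant P90 R6) to 1.25 (P40 R7) by stage in double-mutant glands, from −0.36 to 1.36 by sex in control glands (without P90 R3 and P40 R4), from −4.44 to 1.32 by sex in double-mutant glands (P90 R6 and R5), from −2.04 to 4.17 by genotype in males and from −5.40 to 1.19 in the genotype and sex interaction (both without double-mutant P90 R6 and control P90 R3). Smgc by genotype in males ranged from −0.12 (without the library labelled male P40 R1) to 3.25. Smgc-high shares ranged from −3.66 (without double-mutant P40 R3, permutation test, adjusted p = 0.0163) to −2.55 by stage in double-mutant glands and from −9.95 to −7.25 by sex in control glands, where fewer glands also raise the smallest p. Muc19-high shares ranged from 1.48 to 2.36 by genotype, from −1.70 to 1.09 by stage in double-mutant glands, from −0.0797 to 0.228 by sex in control glands and from −2.54 to 0.389 by sex in double-mutant glands. Called genes ranged from 237 to 356 between both high classes and from 322 to 571 within luminal Dcpp-like cells. Within luminal Dcpp-like cells the share of the gland ranged from 2.01 to 3.31 and the other cells from −13.9 to −9.16, and at P40 the 4 differences ranged from 10.4 to 19.1, 1.49 to 2.03, 0.992 to 3.27 and −14.6 to −8.81.

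Classes at 10% and 5% could not be compared by gene, since fewer than 2 glands held 10 cells of each.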
